A study of Malus domestica with 18 samples.

Results

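The genes described here are the TCP transcription factors and the strigolactone genes of apple, 60 of the 42841 genes in the deposited count table. They were picked by protein name alone, from the best Swiss-Prot match that the table gives for a gene. The names searched for were TCP, CYCLOIDEA and related factors, strigolactone and D14 esterases, KAI2, SMAX1 and its relatives, carotenoid cleavage dioxygenases 7 and 8, and the isomerase D27. No measured value entered the name rule, though it was set with earlier results of these data known. By role, 15 were class I TCP factors, 12 CIN class TCP factors and 7 CYCLOIDEA/TEOSINTE BRANCHED1 (CYC/TB1) class factors. A further 5 were strigolactone synthesis genes, 6 strigolactone esterases of the receptor type, 5 esterases of the karrikin receptor type and 10 SMAX1-LIKE (SMXL) repressors. Of the 60, 47 had enough counts to be tested, 13 did not, and 6 of those 13 had no count in any library. A Swiss-Prot name gives the protein family only, so genes that share a name are told apart by their identifier, and reads of near-identical copies may be shared among them.

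Poly(A) RNA was sequenced from axillary shoots of the apple cultivar Húsvéti rozmaring, grown as shoot explants in vitro. All explants came from shoots that had spent their last subculture without cytokinin, and all 3 media shared the auxin indole butyric acid and gibberellic acid. The control medium held no cytokinin, and the others held 4.5 µM thidiazuron (TDZ, a phenylurea-type cytokinin) or 4.5 µM 6-benzylaminopurine riboside (BAR, an adenine-type cytokinin carrying ribose). Explants were sampled after 48 hours and after 4 weeks, with 3 libraries in each of the 6 groups. The labels call the replicates biological without naming separate vessels, and p-values therefore measure the spread between these samples, which may be partly technical.

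Strigolactones are carotenoid-derived hormones that restrain the outgrowth of axillary buds. D27, CCD7 and CCD8 act in turn to make their precursor, and the esterase D14 (RMS3 in pea) perceives the hormone, joins the F-box protein MAX2 and sends SMXL repressors of the SMXL6, SMXL7 and SMXL8 type to degradation. In Arabidopsis, SMXL3 and SMXL4 belong to a different branch of that family, which acts in phloem formation and is not known to be a strigolactone target. TCP factors of the CYC/TB1 class (BRC1, listed as TCP18, and BRC2, listed as TCP12, in Arabidopsis) hold axillary buds dormant, whereas CIN class factors drive leaf maturation and class I factors mostly promote growth. Cytokinin is known to release buds and to act against BRC1 in several species.

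Libraries held 12546489 to 21279097 counts. The library labelled TDZ, 4 week, replicate 3 stood apart: its Spearman correlation over all genes tested was 0.807 and 0.803 with the other TDZ libraries of 4 weeks, but 0.944 to 0.947 with the 4-week controls. Control replicate 1 of 4 weeks correlated at 0.927 and 0.931 with its replicates, which correlated at 0.987 with each other. Calls against TDZ are therefore also counted with the third TDZ library left out. A letter b of unstated meaning stands in the names of 4 libraries, replicate 3 of the 48-hour control, of BAR at both times and of TDZ at 4 weeks, which otherwise repeat the name of replicate 1. Were these repeats of replicate 1, their groups would hold 2 separate samples and not 3. With each summed into its namesake, 12 branching genes were called for TDZ and 17 for BAR against control at 4 weeks, 4 for TDZ against BAR and 21 for the controls over time. The shares of all genes called were 29.6%, 28.6%, 5.8% and 34.6%. As a check of the labelled tissue, leaf markers (chlorophyll-binding and Rubisco small subunit genes, 31 of 34 tested) summed to 38700 to 47800 CPM (counts scaled to a common library size) in the 48-hour controls, while root markers never exceeded 2.75 CPM in any library, with 5 of 11 at 0.

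No branching gene was called at 48 hours. After 4 weeks on cytokinin-free medium, SMXL3, SMXL4 and most of the TCP genes with a call had fallen, and shoots on either cytokinin held SMXL3 and SMXL4 far above the control. On TDZ both TCP12 genes were higher and D14 DVH24_017977 lower than in control, which were not calls on BAR with all libraries. None of these genes was called between TDZ and BAR with all libraries, so a difference between the cytokinins is not shown for them. The third TDZ library was near the controls in SMXL3, SMXL4 and TCP12, so these TDZ differences came mostly from replicates 1 and 2. A pair of TCP4 genes was higher on BAR than on TDZ. A gene was called at a Benjamini-Hochberg adjusted p under 0.05 in edgeR's quasi-likelihood test, fitted on 26053 genes in all 18 libraries. In bulk tissue, fewer cells of a type and less RNA per cell cannot be told apart.

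For TDZ against control at 4 weeks, 8 of the 47 tested genes were higher and 3 lower, or 17% and 6.38%, beside 16.8% and 9.72% of all genes tested. With the third TDZ library left out these counts were 17 and 6, beside 23.0% and 17.9% of all genes. In all, 11 genes were called with every library, 17 without control replicate 1 of 4 weeks and 7 without TDZ replicate 2. Over all genes these fits called 26.6%, 30.9% and 13.1%. For BAR against control, 13 were higher and 4 lower, or 27.7% and 8.51%, beside 17.2% and 12.7% of all genes, and 19 and 6 without the third TDZ library, beside 21.1% and 15.5%. This total of 17 was 11 without any 1 of control replicates 2 or 3 or BAR replicates 1 or 3 of 4 weeks. The share of all genes called was 29.9% with every library and 17.9% to 19.7% in those fits. TDZ against BAR called 1 gene higher and 2 lower, beside 4.42% and 3.98% of all genes, and 7 and 4 without the third TDZ library, beside 8.47% and 6.97%. That total of 3 was 6 without control replicate 1 of 4 weeks and 1 without BAR replicate 1 or 3. The share of all genes went from 8.4% to 10.9% without the former, and to 0.742% and 1.72% without the latter.

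In the controls over time, 4 of the 47 genes rose and 20 fell, or 8.51% and 42.6%, beside 15.7% and 21% of all genes tested. These 24 calls became 13 without control replicate 2 of 4 weeks and 12 without replicate 3. Over all genes the share called went from 36.7% to 24.6% and 24.7%. The median log2 fold change over all genes tested was 0.14 for TDZ and 0.14 for BAR against control at 4 weeks, and -0.04 for the controls over time. The comparisons of each cytokinin with control and the one over time use the same 4-week control libraries, so a low 4-week control value enters all of them.

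**Figure D1:**
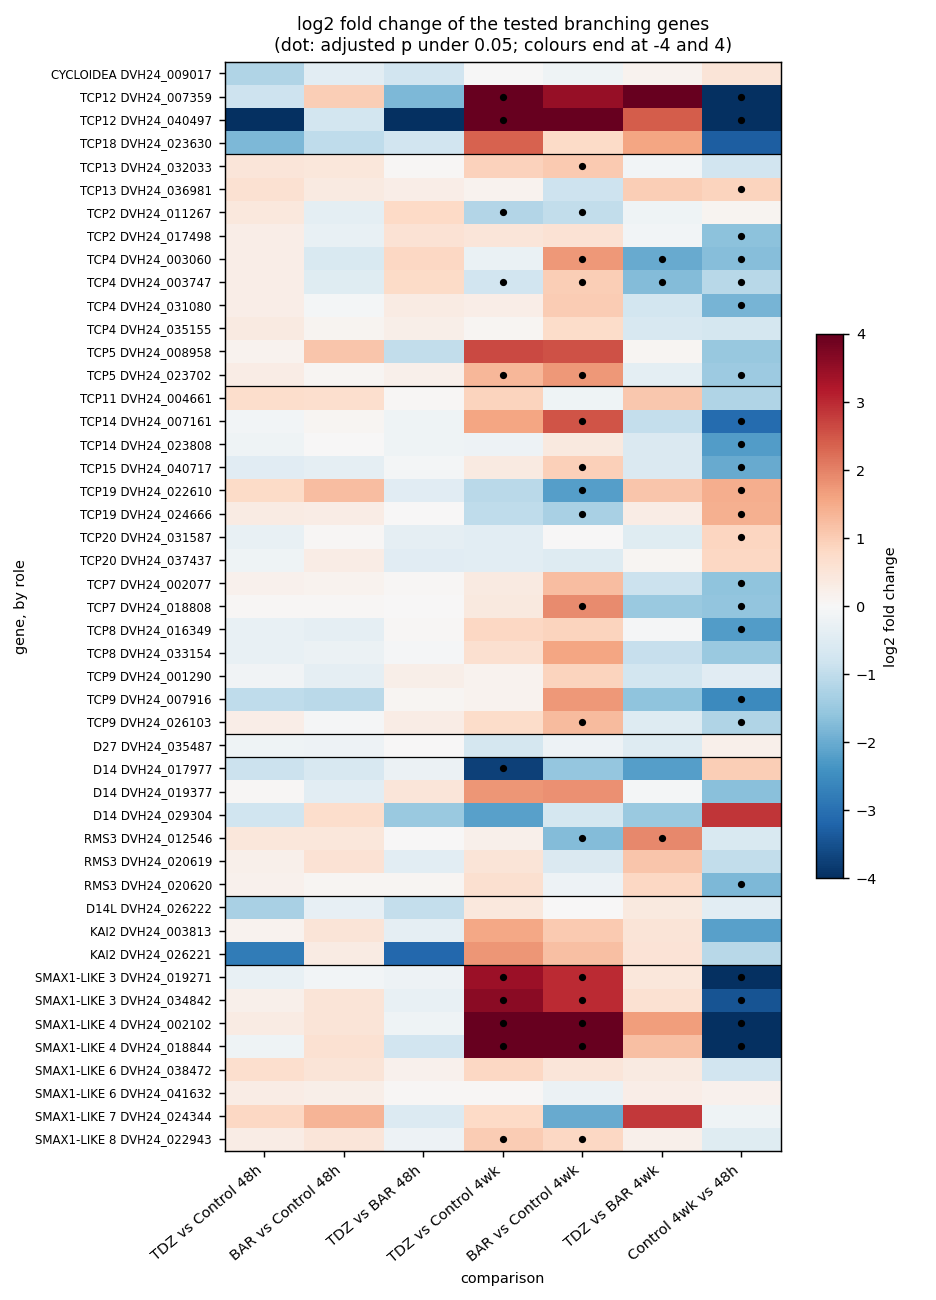
Log2 fold change (colour, from -4 to 4) of the 47 tested TCP and strigolactone genes (rows, grouped by role) in 7 comparisons (columns), with a dot where the adjusted p was under 0.05. The 3 columns of 48 hours hold no dot, and the SMXL3 and SMXL4 rows carry dots for TDZ and BAR against control at 4 weeks and, in the other direction, for the controls over time.

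At 48 hours, edgeR called 0 of the 47 genes for TDZ against control, for BAR against control and for TDZ against BAR, and it called 0.0% of all genes tested in each. At an unadjusted p under 0.05 these comparisons held 2, 1 and 4 of the 47 branching genes, beside 1439, 693 and 1970 of all 26053 genes tested. DESeq2, limma-voom and a fit of the 48-hour libraries alone also called no branching gene. The lowest p for TDZ against control belonged to TCP12 DVH24_040497, for BAR against control to TCP19 DVH24_022610 and for TDZ against BAR to KAI2 DVH24_026221. Their log2 fold changes were -6.69 (adjusted p = 0.62), 1.22 (adjusted p = 1) and -3.14 (adjusted p = 0.47). The first is a fitted value against a group with no count and is no bound. Next in order for TDZ against control were KAI2 DVH24_026221 at -2.80 (adjusted p = 0.73) and TCP13 DVH24_036981 at 0.60 (adjusted p = 0.96). For BAR against control they were TCP4 DVH24_003747 at -0.50 and SMXL8 DVH24_022943 at 0.48 (adjusted p = 1 for both). For TDZ against BAR they were TCP2 DVH24_011267 at 0.81 (adjusted p = 0.48) and TCP12 DVH24_040497 at -5.94 (adjusted p = 0.52).

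Of 5 strigolactone synthesis genes, 1 had enough counts to be tested. Both D27 copies DVH24_002908 and DVH24_027025 and the only CCD7 gene, DVH24_014003, had no count in any of 18 libraries, so they were not detectable at this depth. The only CCD8 gene, DVH24_020844, had 11 counts, all in replicate 1 of the 48-hour control. Another D27 gene, DVH24_035487, an isomerase of carotene, was at 20.1, 17.9 and 15.1 CPM in the 48-hour controls, 11.9, 16.3 and 19.3 on TDZ and 10.3, 20.1 and 16.0 on BAR. After 4 weeks it was at 24.9, 15.5 and 20.1 CPM in the controls, 10.2, 9.16 and 17.8 on TDZ and 18, 20.4 and 14.6 on BAR. Replicates 1 and 2 on TDZ were below every control of 4 weeks, and replicate 3 was within their range. The gene was not called in any comparison with all libraries, and TDZ differed from control by a log2 fold change of -0.71 (95% interval -1.36 to -0.05, adjusted p = 0.10). Without the third TDZ library the difference was -1.06 (adjusted p = 0.012).

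Esterases of the strigolactone receptor type were expressed, and the genes named D14 and RMS3 differed in level. Per coding length, RMS3 DVH24_012546 had the highest mean of the group over 18 libraries, 70.2 FPKM (fragments per kilobase of coding length, scaled to library size), followed by RMS3 DVH24_020619 and DVH24_020620 at 42.0 each. D14 DVH24_017977 had a mean of 7.31 FPKM. The last pair of RMS3 genes lie on the same strand, 30.6 kb apart with no annotated gene between them.

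D14 DVH24_017977 was the receptor gene lower on TDZ. At 48 hours this gene was at 9.35, 6.73 and 6.71 CPM in the controls, 4.04, 6.54 and 1.88 on TDZ and 3.54, 5.71 and 5.24 on BAR. At 4 weeks the controls had 23.8, 12.8 and 8.27 CPM, TDZ 0.724, 0.504 and 2.19 and BAR 2.56, 10.1 and 2.79. All 3 TDZ libraries of 4 weeks, the third included, were below all 3 controls, while 1 BAR library was within the control range. The log2 fold change on TDZ was -3.74 (95% interval -5.21 to -2.27, adjusted p = 0.0030), and -4.60 without the third library. This was the only call of TDZ against control that stood under all 25 alternatives tried. With all libraries, BAR was not called against control for it, and neither was TDZ against BAR.

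D14 DVH24_019377 and DVH24_029304 were low and not called with all libraries. DVH24_019377 was at 3.68, 2.44 and 2.01 CPM in the 48-hour controls, 3.01, 2.02 and 3.42 on TDZ and 1.11, 1.98 and 3.03 on BAR. Its 4-week values were 0.218, 0.485 and 1.91 CPM in the controls, 5.79, 2.56 and 0.258 on TDZ and 1.92, 6.05 and 1.24 on BAR. The third TDZ library overlapped the controls and the other TDZ libraries were above them. DVH24_029304 was at 0, 0.66 and 0.201 CPM in the 48-hour controls, 0, 0 and 0.456 on TDZ and 0, 0.604 and 0.821 on BAR. The 4-week values were 4.64, 1.15 and 0.556 CPM in the controls, 0, 0.042 and 1.42 on TDZ and 1.11, 1.5 and 1.34 on BAR. With that library left out the former was higher on TDZ than in control (log2 fold change 2.29, adjusted p = 0.031) and the latter lower (-6.21, adjusted p = 0.025), so the D14 genes did not move in a single direction.

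RMS3 DVH24_012546 separated the cytokinins. It was at 56.0, 71.6 and 64.3 CPM in the 48-hour controls, 79.4, 88.6 and 95.5 on TDZ and 121, 69.2 and 70.3 on BAR. After 4 weeks the controls had 66.9, 26.4 and 32.6 CPM, TDZ 85.7, 44.7 and 13.8 and BAR 11.2, 17.2 and 9.83. Every BAR library was below every control. BAR was lower than control by a log2 fold change of -1.72 (95% interval -2.76 to -0.68, adjusted p = 0.016), and TDZ was higher than BAR by 1.92 (0.87 to 2.96, adjusted p = 0.027). The TDZ and BAR groups overlapped through the third TDZ library, without which the difference was 2.35.

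RMS3 DVH24_020619 was at 46.0, 36.6 and 35.5 CPM in the 48-hour controls, 49.5, 38.4 and 46.7 on TDZ and 110, 36.2 and 31.6 on BAR. After 4 weeks it was at 43.3, 7.33 and 8.50 CPM in the controls, 49.3, 32.1 and 3.09 on TDZ and 14.4, 15.2 and 9.89 on BAR. Control replicate 1 lay far above its replicates and within the TDZ range. The gene was not called in any comparison. Its neighbour DVH24_020620 was at 58.8, 38.6 and 50.8 CPM in the 48-hour controls, 55.0, 52.8 and 58.9 on TDZ and 77.5, 42.5 and 36.3 on BAR. By 4 weeks it was at 24.3, 9.21 and 8.66 CPM in the controls, 30.9, 31.3 and 3.67 on TDZ and 13.5, 13.7 and 9.99 on BAR. It fell over time in the controls, with all 3 libraries of 4 weeks below all 3 of 48 hours (log2 fold change -1.81, 95% interval -3.01 to -0.60, adjusted p = 0.022). Without the third TDZ library it was higher on TDZ than in control (1.14, adjusted p = 0.025).

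KAI2, the karrikin receptor of the same esterase family, was represented by low genes. The KAI2 gene DVH24_003813 was at 1.55, 0.99 and 1.14 CPM in the 48-hour controls, 1.46, 1.34 and 1.25 on TDZ and 3.22, 0.933 and 1.07 on BAR. At 4 weeks it had 0.764, 0 and 0 CPM in the controls, 1.18, 1.13 and 0.0644 on TDZ and 0.35, 0.833 and 0.484 on BAR. The groups overlapped and no comparison called it. KAI2 DVH24_026221 lies 0.045 kb from D14L DVH24_026222 on the same strand, so reads at their ends may be shared. DVH24_026221 was at 0.193, 1.12 and 2.42 CPM in the 48-hour controls, 0.086, 0.306 and 0.114 on TDZ and 2.38, 1.76 and 0.569 on BAR. Its 4-week values were 0.273, 0.727 and 0.715 CPM in the controls, 3.71, 1.60 and 0.451 on TDZ and 1.05, 1.89 and 1.02 on BAR. At 48 hours 2 of 3 TDZ libraries were below every other library of that time, and at 4 weeks TDZ held the highest library. The 1 call for this gene was the interaction of TDZ with time (log2 4.55, 95% interval 1.70 to 7.40), with an adjusted p just under the threshold (0.05 when rounded), and it was lost under 20 of 24 alternatives.

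D14L DVH24_026222 was at 0.387, 0.792 and 2.42 CPM in the 48-hour controls, 0.258, 0.611 and 0.57 on TDZ and 1.32, 1.37 and 0.126 on BAR. Its 4-week values were 1.75, 0.424 and 0.477 CPM in the controls, 1.85, 0.672 and 1.03 on TDZ and 0.525, 1.61 and 0.591 on BAR, with the media overlapping at both times. The remaining D14L gene DVH24_005176 and KAI2 gene DVH24_026224 had 2 and 6 counts over all libraries and were not tested.

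**Figure D2:**
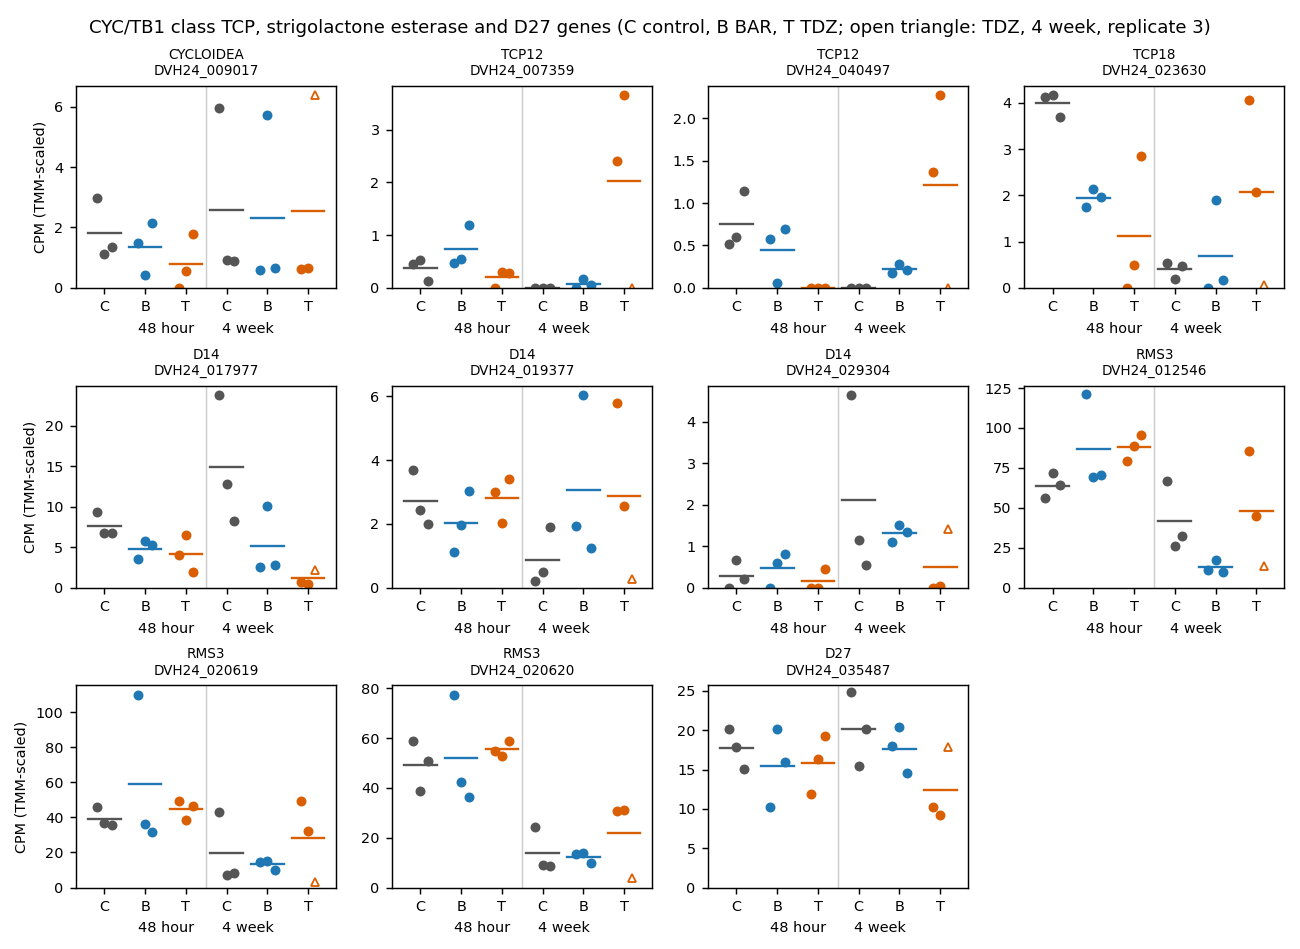
CPM (vertical axes, linear, each from 0) of 4 CYC/TB1 class TCP genes, 3 D14, 3 RMS3 and 1 D27 gene in each of 18 libraries, by medium (C control, B BAR, T TDZ) and time, with the group mean as a bar and the third TDZ library of 4 weeks as an open triangle. Both TCP12 genes are at 0 in the 4-week controls and above it in 2 of 3 TDZ libraries, and D14 DVH24_017977 is below every control in all 3 TDZ libraries of 4 weeks.

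Of the 8 SMXL genes tested, those with calls were SMXL3, SMXL4 and SMXL8. SMXL4 DVH24_002102 was at 18.4, 23.3 and 22.8 CPM in the 48-hour controls, 25.4, 24.9 and 31.5 on TDZ and 41.4, 24.4 and 25.6 on BAR. After 4 weeks it was at 0.273, 0 and 0 CPM in the controls, 26.0, 25.0 and 0.129 on TDZ and 4.72, 6.33 and 4.94 on BAR. The 4-week controls were near 0, BAR stood between control and the first TDZ libraries, and the third TDZ library was at the level of the controls. In the controls it fell by 7.61 on the log2 scale (95% interval -10.32 to -4.89, adjusted p = 0.00082). At 4 weeks TDZ was above control by a log2 fold change of 7.28 (4.58 to 9.98, adjusted p = 0.0026) and BAR by 5.60 (2.93 to 8.27, adjusted p = 0.0048).

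SMXL4 DVH24_018844 had the same order. Its 48-hour values were 7.35, 11 and 5.30 CPM in the controls, 3.61, 8.92 and 8.38 on TDZ and 14.9, 10.9 and 9.86 on BAR. At 4 weeks the controls had 0.164, 0 and 0.0795 CPM, TDZ 8.19, 11.9 and 0.129 and BAR 2.86, 3.44 and 2.53. Over time the controls fell by 6.44 on the log2 scale (adjusted p = 0.0011). TDZ was higher than control by 6.22 (95% interval 3.78 to 8.66, adjusted p = 0.0030) and BAR by 5.02 (2.60 to 7.44, adjusted p = 0.0051).

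SMXL3 DVH24_034842 was at 13.5, 11.2 and 12.8 CPM in the 48-hour controls, 10.7, 15.5 and 16.8 on TDZ and 17.7, 16.0 and 19.4 on BAR. At 4 weeks the controls had 1.26, 1.21 and 0.954 CPM, TDZ 21.2, 19 and 2.06 and BAR 8.39, 8.89 and 10.2. Every TDZ library, the third included, and every BAR library of 4 weeks was above every control. The log2 fold change in the controls over time was -3.44 (adjusted p = 0.00079). TDZ was above control by 3.62 (95% interval 2.39 to 4.84, adjusted p = 0.0020) and BAR by 2.99 (1.79 to 4.19, adjusted p = 0.0019), and this gene had the lowest p of the 47 in both.

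SMXL3 DVH24_019271 was at 13.6, 14.1 and 9.40 CPM in the 48-hour controls, 10.2, 8.98 and 10.7 on TDZ and 10.6, 8.73 and 15.4 on BAR. Its 4-week values were 1.75, 0.182 and 0.238 CPM in the controls, 12.53, 10.4 and 1.29 on TDZ and 4.14, 5.72 and 7.95 on BAR. Control replicate 1 was the highest control and lay above the third TDZ library. The controls fell by 4.04 on the log2 scale (adjusted p = 0.0016), and TDZ and BAR were above control by 3.43 and 2.98 (adjusted p = 0.0060 and 0.0094).

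Without the third TDZ library the TDZ fold changes of these 4 genes were 4.12 and 3.91 for SMXL3 and 7.84 and 6.79 for SMXL4. TDZ then also exceeded BAR in SMXL4 DVH24_002102 (log2 2.25, 95% interval 1.47 to 3.03, adjusted p = 0.00062), SMXL4 DVH24_018844 (1.77, adjusted p = 0.015) and SMXL3 DVH24_034842 (1.13, adjusted p = 0.0044). With every library none of the 8 SMXL genes was called between TDZ and BAR. Each of the 4 calls against control for TDZ and for BAR was lost under 1 or 2 of 25 alternatives. Over time in the controls, the call of SMXL4 DVH24_002102 was lost under 1 of 24 and the other 3 under none.

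Markers of meristem and dividing cells moved with some of these values. The 17 shoot meristem markers, 10 of them tested, summed to 80.3, 103 and 7.60 CPM in the 4-week TDZ libraries in replicate order, 6.00 to 10.6 in the controls and 10.9 to 12.6 on BAR. SHOOT MERISTEMLESS DVH24_016931 averaged 18.8 CPM on TDZ at 4 weeks, 0 in the controls and 0.0537 on BAR. Dividing cell markers (histone H4 and B-type cyclins, 25 genes) summed to 547, 572 and 301 CPM on TDZ, 236 to 280 in the controls and 199 to 427 on BAR. At 48 hours meristem markers summed to 42.0 to 97.6 CPM in the controls, 9.4 to 42.7 on TDZ and 16.6 to 94.4 on BAR, and SHOOT MERISTEMLESS averaged 17.9, 3.62 and 15.5 CPM. Not every meristem marker moved this way. CUP-SHAPED COTYLEDON 2 DVH24_007248 averaged 3.65 CPM in control, 5.53 on TDZ and 3.0 on BAR at 48 hours, and 2.72, 4.66 and 7.51 CPM at 4 weeks. CUP-SHAPED COTYLEDON 1 DVH24_005358 averaged 5.69 CPM in control, 2.88 on TDZ and 3.58 on BAR at 4 weeks. Dividing cell markers were at 758 to 1120 CPM in the 48-hour controls. The part of these cell types in the SMXL differences was not tested.

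SMXL8 DVH24_022943 was the gene of the strigolactone-responsive branch that was higher on both cytokinins. It was at 14.7, 17.2 and 20.1 CPM in the 48-hour controls, 18.5, 27.2 and 17.7 on TDZ and 29.2, 23.7 and 19.4 on BAR. At 4 weeks the controls had 11.6, 12.6 and 13 CPM, TDZ 26.8, 32.1 and 16.9 and BAR 26.8, 19.7 and 20.0. All TDZ and BAR libraries of 4 weeks were above all controls, the third TDZ library being nearest to them, and TDZ and BAR overlapped. TDZ was higher than control by 1.03 (95% interval 0.48 to 1.58, adjusted p = 0.011) and BAR by 0.84 (0.29 to 1.39, adjusted p = 0.024).

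SMXL6 and SMXL7 genes were not called in any comparison with all libraries. SMXL6 DVH24_038472 was at 51.1, 50.4 and 82.1 CPM in the 48-hour controls, 75.9, 134 and 83.9 on TDZ and 102, 91.5 and 67.3 on BAR. By 4 weeks it was at 56.1, 21.6 and 28.9 CPM in the controls, 70.5, 111 and 8.50 on TDZ and 49.1, 40.7 and 58.4 on BAR. Without the third TDZ library, the lowest of all, TDZ exceeded control by 1.35 (adjusted p = 0.0077). SMXL6 DVH24_041632 was at 59.1, 67.6 and 86.1 CPM in the 48-hour controls, 66.7, 108 and 87.0 on TDZ and 98.6, 68.3 and 84.4 on BAR. After 4 weeks it was at 82.4, 83.0 and 73.8 CPM in the controls, 105, 101 and 39.0 on TDZ and 64.8, 53.3 and 87.3 on BAR. Its TDZ difference from control was 0.04 (95% interval -0.63 to 0.70) and its BAR difference -0.22 (-0.88 to 0.44).

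SMXL7 DVH24_024344 was at 0.516, 3.10 and 2.42 CPM in the 48-hour controls, 1.72, 5.38 and 3.53 on TDZ and 9.03, 4.17 and 2.34 on BAR. Its 4-week values were 0.382, 1.45 and 3.58 CPM in the controls, 3.44, 5.21 and 0.644 on TDZ and 0.641, 0.333 and 0.322 on BAR. TDZ lay above BAR in all 3 libraries, by a log2 fold change of 2.83 that missed the threshold (adjusted p = 0.070), and by 3.30 without the third library (adjusted p = 0.016). SMXL6 DVH24_035350 and SMXL8 DVH24_030669 had no count in any library. Of the 8 SMXL genes tested, 5 were higher on TDZ and 5 on BAR, beside 16.8% and 17.2% of all genes. Their medians were 2.23 and 1.91 on the log2 scale, beside 0.14 for all genes in each comparison.

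**Figure D3:**
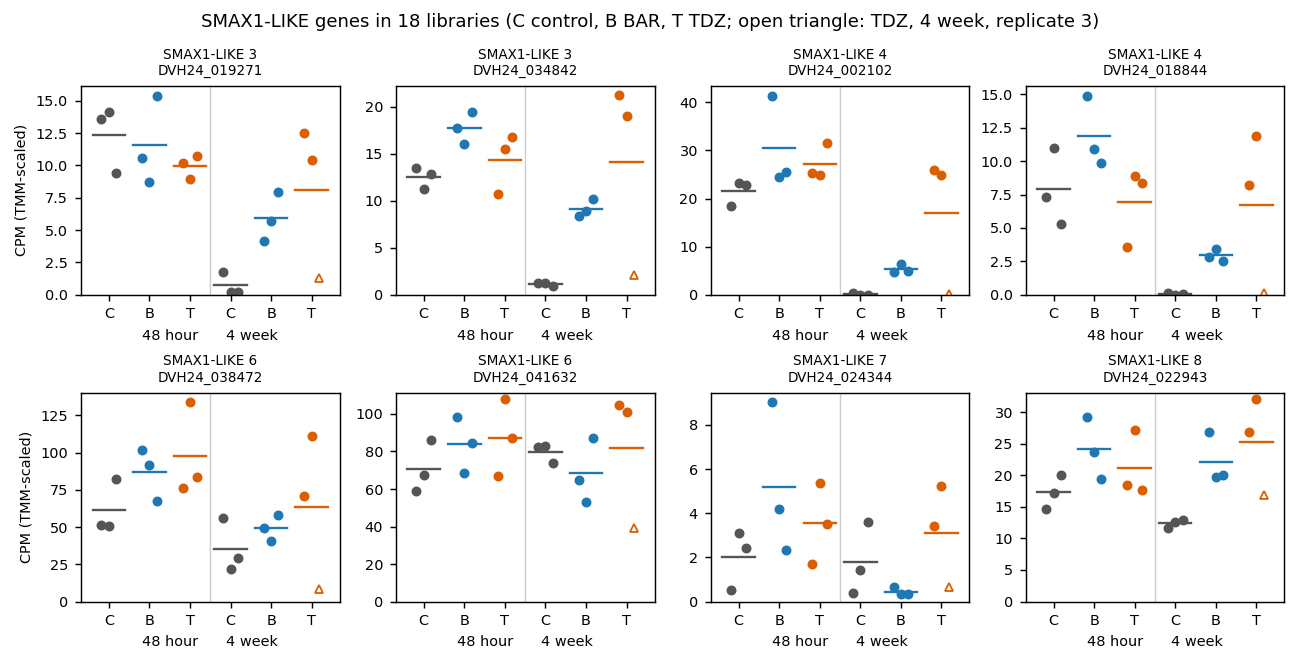
CPM (vertical axes, linear, each from 0) of the 8 tested SMXL genes in each of 18 libraries, by medium (C control, B BAR, T TDZ) and time, with the group mean as a bar and the third TDZ library of 4 weeks as an open triangle. SMXL3 and SMXL4 are near 0 in the 4-week controls and in the third TDZ library, and above them on BAR and in the other TDZ libraries, a pattern that SMXL6 DVH24_041632 does not have.

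CYC/TB1 class TCP factors, the bud dormancy class, were among the lowest genes, and TCP12 was the pair with calls. TCP12 DVH24_007359 was at 0.451, 0.528 and 0.134 CPM in the 48-hour controls, 0, 0.306 and 0.285 on TDZ and 0.475, 0.549 and 1.20 on BAR. At 4 weeks it had no count in the controls, 2.40, 3.65 and 0 CPM on TDZ and 0, 0.167 and 0.0537 on BAR. TCP12 DVH24_040497 was at 0.516, 0.594 and 1.14 CPM in the 48-hour controls, 0 in all TDZ libraries and 0.581, 0.0549 and 0.695 on BAR. By 4 weeks it had no count in the controls, 1.36, 2.27 and 0 CPM on TDZ and 0.175, 0.278 and 0.215 on BAR. In both genes TDZ replicates 1 and 2 of 4 weeks were above every other library, and the third had no count, as in the controls.

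TCP12 DVH24_007359 had 140 counts on TDZ and none in the control at 4 weeks. Its mean on TDZ was at least 31.9-fold higher, taking 3 counts over the control group as its floor. The mean of TCP12 DVH24_040497, with 84 counts, was at least 19.1-fold higher. These bounds cover counting error in the control only, not the spread between TDZ libraries, of which the third had no count of either gene. Both differences were called (adjusted p = 0.012 and 0.017). Neither gene was called between TDZ and BAR at 4 weeks with all libraries. Both genes also fell over time in the controls, at least 5.87-fold from 17 counts and at least 11.9-fold from 34 (adjusted p = 0.047 and 0.019), the former call being lost under 17 of 24 alternatives. At 48 hours TCP12 DVH24_040497 had no count on TDZ against 34 in the control, at least 11.4-fold lower, without passing the test. Meristem markers were then at 9.4 to 42.7 CPM on TDZ and 42.0 to 97.6 in the controls. TDZ replicates 1 and 2, which carried TCP12, were those with 80.3 and 103 CPM of meristem markers, and the part of those cells in the TCP12 values was not tested.

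TCP18 DVH24_023630, the BRC1 counterpart by name, was at 4.13, 4.16 and 3.69 CPM in the 48-hour controls, 0, 0.489 and 2.85 on TDZ and 1.74, 2.14 and 1.96 on BAR. All cytokinin libraries of 48 hours were below all controls, yet the log2 fold changes of -1.81 for TDZ (95% interval -4.60 to 0.98) and -1.03 for BAR (-3.75 to 1.68) did not pass (adjusted p = 1 for both). At 4 weeks it was at 0.546, 0.182 and 0.477 CPM in the controls, 4.07, 2.06 and 0.0644 on TDZ and 0, 1.89 and 0.161 on BAR. TDZ replicates 1 and 2 were above every control, and the third library was below them. With all libraries it missed the threshold over time in the controls (log2 -3.29, 95% interval -6.32 to -0.27, adjusted p = 0.081) and on TDZ (2.35, adjusted p = 0.23).

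CYCLOIDEA DVH24_009017, matched to a fragment, was at 2.97, 1.12 and 1.34 CPM in the 48-hour controls, 0, 0.55 and 1.77 on TDZ and 1.48, 0.439 and 2.15 on BAR. At 4 weeks it was at 5.95, 0.909 and 0.874 CPM in the controls, 0.633, 0.672 and 6.38 on TDZ and 0.583, 5.72 and 0.645 on BAR. In each medium a single library of 4 weeks was high, and no comparison called the gene. All 3 TCP1 genes, DVH24_028376, DVH24_032130 and DVH24_032133, were too low to test, with 23, 43 and 77 counts in all and their highest values at 0.504, 0.403 and 1.09 CPM.

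CIN class TCP factors, which are known to drive the maturation of leaves, held the highest means per coding length over 18 libraries, 108 FPKM for TCP2 DVH24_011267 and 81.3 for TCP2 DVH24_017498. The order differed between groups: on BAR at 4 weeks class I TCP7 DVH24_018808 had a mean of 79.8 FPKM, TCP4 DVH24_003747 78.0 and the same TCP2 genes 64.7 and 53. Of 10 tested, 5 fell and 1 rose in the controls over time, beside 21% and 15.7% of all genes. At 4 weeks 4 were higher and 1 lower on BAR, beside 17.2% and 12.7% of all genes. On TDZ 1 was higher and 2 lower, beside 16.8% and 9.72%. Without the third TDZ library these 4-week counts were 7 and 2 on BAR, beside 21.1% and 15.5% of all genes. On TDZ they were 4 and 1, beside 23.0% and 17.9%, as calls over all genes also became more frequent. The median log2 fold changes were -1.28, 1.00 and 0.20 in these comparisons, beside -0.04, 0.14 and 0.14 for all genes.

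TCP4 set BAR apart from TDZ. TCP4 DVH24_003747 was at 166, 157 and 116 CPM in the 48-hour controls, 206, 177 and 140 on TDZ and 87.6, 112 and 110 on BAR. At 4 weeks the controls had 85.3, 52.7 and 65.6 CPM, TDZ 49.4, 41.8 and 29.0 and BAR 135, 95.4 and 175. All 3 BAR libraries were above all 3 controls, which were above all 3 TDZ libraries. At 48 hours BAR was instead below every control, without passing the test. It fell by 1.11 on the log2 scale in the controls (adjusted p = 0.0057), was higher on BAR than control by 0.99 (95% interval 0.42 to 1.57, adjusted p = 0.013) and lower on TDZ by -0.76 (-1.33 to -0.19, adjusted p = 0.048). The last call was lost under 19 of 25 alternatives, among them leaving out the third TDZ library. TDZ was below BAR by -1.75 (-2.34 to -1.17, adjusted p = 0.0041), and by -1.57 without that library.

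TCP4 DVH24_003060 was at 93.3, 108 and 67.4 CPM in the 48-hour controls, 113, 127 and 78.9 on TDZ and 46.9, 67.0 and 63.6 on BAR. After 4 weeks the controls had 45.2, 14.4 and 22.8 CPM, TDZ 29.2, 26.9 and 12.4 and BAR 87.2, 53.2 and 136. BAR was again above every other library at 4 weeks and below every other at 48 hours, the latter without a call. It fell by 1.70 in the controls (adjusted p = 0.0065), was higher on BAR than control by 1.74 (95% interval 0.84 to 2.65, adjusted p = 0.0075) and lower on TDZ than BAR by -2.01 (-2.92 to -1.10, adjusted p = 0.013). The interaction of BAR with time was called for both TCP4 genes (2.34 and 1.5, adjusted p = 0.024 for each).

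Further CIN class genes were called. TCP2 DVH24_011267 was lower at 4 weeks on TDZ (93.3 ± 10.5 CPM, SD, n = 3) and on BAR (105 ± 32.4) than in control (210 ± 59.3), with log2 fold changes of -1.17 and -1.0 (adjusted p = 0.0065 and 0.012 by edgeR). TCP5 DVH24_023702 was higher on both, 4.57 ± 0.668 and 5.99 ± 1.40 CPM against 1.83 ± 0.942, by 1.32 and 1.72 (adjusted p = 0.039 and 0.011), and had fallen by 1.46 in the controls (adjusted p = 0.019). TCP13 DVH24_032033 was called on BAR and not on TDZ, higher by 1.04 (adjusted p = 0.034). Over time in the controls TCP2 DVH24_017498 fell by 1.64 and TCP4 DVH24_031080 by 1.87 (adjusted p = 0.0046 and 0.0064), and TCP13 DVH24_036981 rose by 0.88 (adjusted p = 0.048), the last being lost under 16 of 24 alternatives. TCP4 DVH24_035155 and TCP5 DVH24_008958 were not called, TCP10 DVH24_017302 was too low to test and TCP2 DVH24_030578 had no count. Leaf markers summed to 10100 to 25900 CPM in the 4-week controls, 4880 to 8150 on TDZ and 11200 to 16900 on BAR, and their part in the CIN class values was not tested.

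Class I TCP factors, mostly growth-promoting in Arabidopsis, were all tested. In the controls over time 8 of 15 fell and 3 rose (53.3% and 20%, beside 21% and 15.7% of all genes). On BAR at 4 weeks 4 were higher and 2 lower than control (26.7% and 13.3%, beside 17.2% and 12.7%). On TDZ none was called with all libraries, beside 16.8% higher and 9.72% lower over all genes. For TDZ 3 of the 15 had an unadjusted p under 0.05, beside 10224 of all 26053 genes tested. Leaving out the third TDZ library, 3 were higher and 2 lower on TDZ, beside 23.0% and 17.9% of all genes.

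TCP15 DVH24_040717 had the lowest p of all branching genes over time in the controls. It was at 28.7, 30.1 and 30.8 CPM in the 48-hour controls, 19.7, 25.4 and 21 on TDZ and 22.7, 22.3 and 25.5 on BAR. By 4 weeks it was at 8.79, 6.06 and 7.07 CPM in the controls, 10.2, 13.2 and 4.38 on TDZ and 17.8, 11.6 and 12.6 on BAR. All 3 controls of 4 weeks were below all 3 of 48 hours, and every BAR library of 4 weeks was above every control of that time. The log2 fold change was -2.03 over time (95% interval -2.70 to -1.36, adjusted p = 0.00061) and 0.94 for BAR against control (0.28 to 1.59, adjusted p = 0.032).

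TCP14 DVH24_007161 was at 43.0, 35.0 and 36.4 CPM in the 48-hour controls, 32.7, 36.9 and 37.0 on TDZ and 36.4, 44.0 and 40.6 on BAR. At 4 weeks the controls had 8.89, 2.79 and 1.67 CPM, TDZ 18.6, 19.3 and 2.38 and BAR 31.6, 21.5 and 24.7. It fell by 3.08 in the controls (95% interval -4.38 to -1.78, adjusted p = 0.0018) and was higher on BAR than control by 2.53 (1.25 to 3.80, adjusted p = 0.0065). TDZ replicates 1 and 2 were above every control and the third was within their range, and without it TDZ exceeded control by 2.07 (adjusted p = 0.00097).

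TCP19 genes had the opposite direction to TCP14 and TCP15. TCP19 DVH24_022610 was at 5.16, 4.23 and 2.15 CPM in the 48-hour controls, 6.19, 5.93 and 7.58 on TDZ and 14.5, 6.09 and 6.38 on BAR. By 4 weeks it was at 8.46, 10.7 and 12.4 CPM in the controls, 2.80, 3.61 and 8.44 on TDZ and 2.33, 2.78 and 1.77 on BAR. BAR was above every control at 48 hours, without a call, and below every control at 4 weeks. The controls rose by 1.45 on the log2 scale (adjusted p = 0.023), BAR was lower than control at 4 weeks by -2.19 (95% interval -3.20 to -1.19, adjusted p = 0.0039), and the interaction of BAR with time was -3.41 (-4.81 to -2.02, adjusted p = 0.0097). TCP19 DVH24_024666 likewise rose in the controls, by 1.43 (adjusted p = 0.027), and was lower on BAR by -1.30 (adjusted p = 0.047), a call lost under 16 of 25 alternatives. Leaving out the third TDZ library, both TCP19 genes were also lower on TDZ than control, by -1.71 and -2.24 (adjusted p = 0.0069 and 1.1e-05).

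Of the remaining class I genes, TCP7 DVH24_018808 was higher on BAR at 4 weeks than in control, 71.1 ± 15.2 against 19.3 ± 12.8 CPM (SD, n = 3; log2 fold change 1.88, adjusted p = 0.0083 by edgeR). TCP9 DVH24_026103 was also higher on BAR, by 1.27 (adjusted p = 0.031). Over time in the controls TCP14 DVH24_023808, TCP8 DVH24_016349, TCP7 DVH24_002077 and DVH24_018808, and TCP9 DVH24_026103 and DVH24_007916 fell, by 1.19 to 2.56 on the log2 scale (adjusted p from 0.0073 to 0.044). TCP20 DVH24_031587 rose by 0.85 (adjusted p = 0.026). TCP11 DVH24_004661, TCP8 DVH24_033154, TCP9 DVH24_001290 and TCP20 DVH24_037437 were not called.

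**Figure D4:**
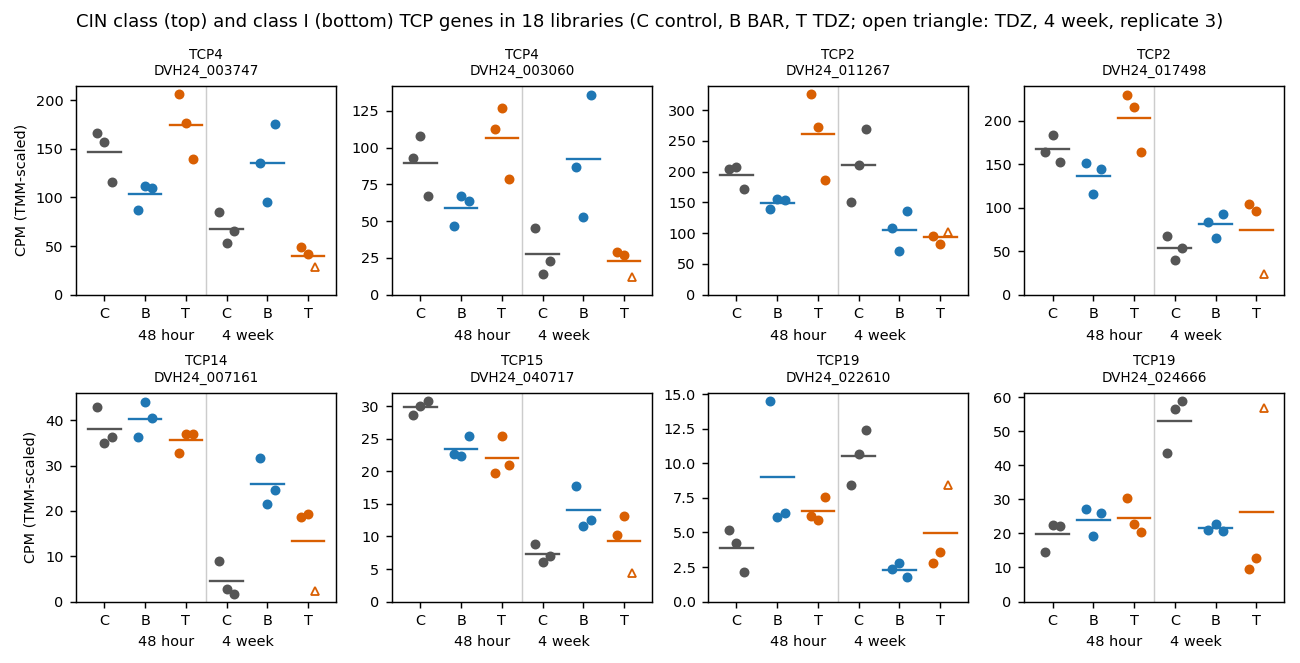
CPM (vertical axes, linear, each from 0) of 4 CIN class genes (top row) and 4 class I genes (bottom row) in each of 18 libraries, by medium (C control, B BAR, T TDZ) and time, with the group mean as a bar and the third TDZ library of 4 weeks as an open triangle. The TCP4 genes are highest on BAR at 4 weeks, TCP14 and TCP15 are lower in the 4-week than in the 48-hour controls, and TCP19 is higher in the 4-week controls than on BAR.

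Whether a cytokinin difference itself changed between 48 hours and 4 weeks was tested as an interaction. For TDZ 7 of the 47 genes had a positive and 1 a negative interaction, beside 5.44% and 2.14% of all genes, and 11 and 4 without the third TDZ library, beside 15.9% and 10.8%. The positive ones were the SMXL3 and SMXL4 genes, both TCP12 genes and KAI2 DVH24_026221, and the negative one was TCP2 DVH24_011267 (-1.60, adjusted p = 0.028). These 8 calls fell to 0 without any 1 of control replicate 3 or TDZ replicates 1 or 2 of 48 hours, or control replicates 2 or 3 or TDZ replicates 1 or 2 of 4 weeks. Over all genes tested those fits called 0 to 0.289%, against 7.58% with every library. The count of branching genes was 4 without control replicate 1 or 2 of 48 hours, beside 1.58% and 2.19% of all genes. It was 5 without BAR replicate 2 or TDZ replicate 3 of 48 hours or BAR replicate 1 or 3 of 4 weeks, beside 4.64% to 5.09%.

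For BAR 4 had a positive and 1 a negative interaction, beside 6.70% and 4.69% of all genes. The positive ones were SMXL4 DVH24_002102 (5.10), SMXL3 DVH24_034842 (2.49) and the TCP4 genes, and the negative one was TCP19 DVH24_022610. These 5 calls became 17 without control replicate 1 and 15 without TDZ replicate 3 of 4 weeks. The share of all genes called rose from 11.4% to 19.5% and 21.9% in those fits. Only 1 branching gene was left without control replicates 1 or 2 or BAR replicate 1 of 48 hours, or control replicates 2 or 3 or BAR replicates 1 or 3 of 4 weeks. Those fits called 3.9% to 5.19% of all genes. The count was 3 without control replicate 3, BAR replicates 2 or 3, or TDZ replicates 2 or 3 of 48 hours, or BAR replicate 2 of 4 weeks, beside 4.73% to 9.95% of all genes.

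Other genes of the pathway were taken by name. The strigolactone list of MAX2, Topless-type co-repressors and the MAX1 cytochrome P450 genes held 22 genes, 17 of them tested. At 4 weeks 3 were higher and 3 lower on TDZ, and 4 higher and 4 lower on BAR, than in control. The same shares over all genes tested, 16.8% higher and 9.72% lower on TDZ and 17.2% and 12.7% on BAR, apply to each list below. The F-box gene MAX2 DVH24_006121, which acts with D14, was at 36.5 ± 7.24 CPM in the controls (SD, n = 3), 15 ± 2.51 on TDZ and 8.75 ± 1.46 on BAR, with log2 fold changes of -1.28 and -2.06 (adjusted p = 0.0035 and 0.00028 by edgeR). MAX2 DVH24_030837 was not called against control at 4 weeks (0.52 and -0.32) and fell by 1.25 in the controls over time (adjusted p = 0.017). Topless-type genes went both ways: TOPLESS DVH24_031307 was higher on TDZ and BAR by 2.93 and 3.87 (adjusted p = 0.0017 and 0.00019), and TOPLESS-RELATED PROTEIN 2 DVH24_022300 lower by -1.45 and -1.89 (adjusted p = 0.017 and 0.0041). Of 6 MAX1 genes, 5 were too low to test, and DVH24_012654, at 3.38 ± 1.52 CPM in the 4-week controls, was not called.

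SMAX1 itself, listed as SUPPRESSOR OF MAX2 1, falls outside the name rule and was added after the table was read. SMAX1 DVH24_015489 and DVH24_002293 rose over time in the controls by 1.47 and 1.02 (adjusted p = 0.010 and 0.0013), the direction opposite to SMXL3 and SMXL4. Both were lower on TDZ than control at 4 weeks, by -1.35 and -0.55 (adjusted p = 0.021 and 0.044), and neither was called on BAR. Without the third TDZ library the values were -1.78 and -0.51, and the latter was no longer called (adjusted p = 0.069).

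Genes of kinds that act downstream of BRC1 in Arabidopsis (ATHB-40 and NCED) and bud dormancy genes (dormancy-associated and auxin-repressed) made 1 list, with 12 of 15 tested. Over time in the controls 7 of these fell and none rose, beside 21% and 15.7% of all genes. On TDZ at 4 weeks 6 were higher and 1 lower, and on BAR 4 higher and 3 lower, with median log2 fold changes of 1.67 and 0.69. The homeobox gene ATHB-40 DVH24_029904 was at 0.932 ± 1.19 CPM in the 4-week controls (SD, n = 3), 16.7 ± 14 on TDZ and 15.8 ± 16.7 on BAR (log2 fold changes 4.10 and 4.01, adjusted p = 0.017 for each by edgeR). The auxin-repressed gene DVH24_011491 was lower on BAR than control (149 ± 109 against 494 ± 76.8 CPM, log2 -1.73, adjusted p = 0.0073) and higher on TDZ than BAR (1.63, adjusted p = 0.028).

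SPL factors, of which rice and Arabidopsis members restrain branching, had 12 of 27 tested genes higher and 2 lower on TDZ and 9 higher and 0 lower on BAR. Among the genes named SPL14, DVH24_009576 was at 307 ± 30.6 CPM in the 4-week controls (SD, n = 3), 177 ± 19.9 on TDZ and 430 ± 80.9 on BAR. It was lower on TDZ than control by -0.80 (adjusted p = 0.010 by edgeR) and than BAR by -1.28 (adjusted p = 0.0042). BAR was not called against control (0.48, adjusted p = 0.079). The other SPL14 genes differed from it. DVH24_005100 was higher than control on TDZ by 1.78 and on BAR by 2.62 (adjusted p = 0.0085 and 0.0011). DVH24_019483 was higher on BAR by 2.5 (adjusted p = 0.0013) and not called on TDZ against control. DVH24_015794 was lower on TDZ by -0.68 (adjusted p = 0.032) and not called on BAR against control. Growth-regulating factors and their partners, on which CIN class TCP factors are known to act in Arabidopsis, were higher on TDZ in 15 of 18 genes and on BAR in 10, with none lower on either. Over time in the controls 15 fell and 1 rose, beside 21% and 15.7% of all genes. GRF6 DVH24_012590 was at 51.2 ± 2.01 CPM in the 48-hour controls (SD, n = 3), 0.101 ± 0.175 in the 4-week controls, 28.5 ± 24.4 on TDZ and 16.0 ± 6.16 on BAR at 4 weeks (log2 fold changes against control 7.99 and 7.15, adjusted p = 0.0020 and 0.0013 by edgeR).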

How the data were processed

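Poly(A) RNA of 18 libraries was sequenced, and libraries were put in 6 groups of 3 from the labels alone. The submitters' processing notes name CASAVA, the aligner HISAT2 (2.0.5) and the counter featureCounts (1.5.0-p3). The genome build and the strandedness were not given in the sources used here, and gene positions are therefore left out. The authors deposited whole-number counts per gene, which were tested, and FPKM values, which served only to compare levels between genes; 98.19% of gene lengths are multiples of 3, so these are coding lengths.

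Counts were fitted with edgeR 4.0.16 (TMM scaling, quasi-likelihood test, R 4.3.3) on the 26053 genes that passed filterByExpr (minimum count 10, minimum total 15). P-values were Benjamini-Hochberg adjusted over all of them for each of 9 comparisons, and intervals are 95%. CPM values are TMM-scaled. A fold against a group without counts is a bound, set by 3 counts over that group. The fit was tested on simulated data. Alternatives were RLE scaling, no filter, DESeq2 1.42.0, limma-voom (limma 3.58.1), the libraries of 1 time alone, a replicate block, libraries with a b in their name summed with their namesake, and leaving out each library. Intervals and floors cover the spread in the fit or counting error only.

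The genes and lists were chosen with earlier results of these data known. Values in every library are given for genes of the branching roles with a group mean of at least 1 CPM, for the 10 called genes of lowest p with a library of at least 5 CPM, and for the gene of lowest p in each comparison. Replicate numbers were not used to pair libraries.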

Additional observations from a re-analysis of the deposited data

Results flagged for a closer look

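For 8 genes on TDZ and 5 on BAR, the difference from control itself differed between 48 hours and 4 weeks, by the interaction term of the edgeR fit at an adjusted p under 0.05. On TDZ the interaction (log2) was 6.94 for SMXL4 DVH24_002102, 6.39 for SMXL4 DVH24_018844, 3.42 for SMXL3 DVH24_034842 and 3.74 for SMXL3 DVH24_019271. It was 4.55 for KAI2 DVH24_026221 and -1.60 for TCP2 DVH24_011267. The fitted values of 14.07 for TCP12 DVH24_040497 and 8.95 for TCP12 DVH24_007359 involve groups with no count, depend on the prior count and are no bounds.

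On BAR the interaction was -3.41 for TCP19 DVH24_022610, 2.34 for TCP4 DVH24_003060 and 1.5 for TCP4 DVH24_003747. It was 2.49 for SMXL3 DVH24_034842 and 5.10 for SMXL4 DVH24_002102. The interactions on TDZ and BAR share the control libraries of both times.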

How the results depend on the processing

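Directions were checked for genes called in a comparison and for the 3 genes of lowest p in each. None of these was reversed under any alternative run, and other fold changes were not checked. The number of branching genes called moved by over 1.5 times in these cases, and the cause was not tested. For TDZ against control at 4 weeks (11 genes), limma-voom called 7 and the fit of 4-week libraries alone 4. For BAR against control (17) the 4-week fit called 6, and the share of all genes went from 29.9% to 18.5%. For TDZ against BAR (3) DESeq2 called 8 and the 4-week fit 0, where the share of all genes went from 8.4% to 13.7% and 0.63%. The TDZ interaction (8) had 0 calls by limma-voom and 5 with the replicate block. Over all genes that share went from 7.58% to 0.276% and 2.94%. The BAR interaction (5) had 10 calls by DESeq2, 3 by limma-voom and 8 with b-named libraries summed. Its share of all genes went from 11.4% to 18.4%, 8.07% and 10.4%. Leaving out 1 library at a time gave 7 to 23 calls for TDZ, 11 to 25 for BAR, 1 to 11 for TDZ against BAR, 12 to 27 for the controls over time, 0 to 15 and 1 to 17 for the TDZ and BAR interactions, and 0 at 48 hours. The share called over all genes moved too. For TDZ against control at 4 weeks it was 26.6% in the main fit, 17.5% by limma-voom and 6.67% in the 4-week fit. With 1 library left out it was 12.6% to 40.9%. Calls kept under every alternative numbered 10 of 24 over time, 3 of 17 for BAR, 1 of 11 for TDZ, 1 of 5 for the BAR interaction, 0 of 3 for TDZ against BAR and 0 of 8 for the TDZ interaction. Same-numbered libraries did not deviate together (correlations from -0.332 to 0.332), so the numbers were not taken as pairs. At 3 libraries a group, genes under about 1 CPM had wide intervals.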
